A study of Mus musculus with 6 samples.

Results

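The lungs of mutant EGFR-driven lung cancer mice were examined for 28 genes of cholesterol synthesis, sterol sensing and sterol handling, named by their place in the pathway. Of the 28 genes, 26 had an array probe set of their own, out of 18193 genes measured in all, and they were read by 58 probe sets. Acat2 and Soat1 were not analysed here. The 26 genes comprised 4 genes of the mevalonate steps, 4 of the steps to squalene and its epoxide, 9 of the sterol ring, 5 of sterol sensing and 4 of uptake and transport.

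Cells build cholesterol from acetyl-CoA through mevalonate, isoprenoid diphosphates and squalene, which is closed into lanosterol and then trimmed to cholesterol. The genes of this route are switched on by SREBP2 and, less selectively, SREBP1, transcription factors made as membrane proteins of the endoplasmic reticulum. When membrane sterol is scarce, SCAP carries the SREBPs to the Golgi, where they are cut and released, and when sterol is plentiful, INSIG proteins hold SCAP back and the route is turned down. In the lung, alveolar type II cells use cholesterol in surfactant, and alveolar macrophages take up and clear surfactant lipid.

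The RNA came from the lungs of 3 LC-HFD mice and 3 LC-RD mice, and each lung had an Affymetrix array of its own. Both groups were adult male CC10-rtTA/tet-O-EGFR-L858R double transgenic mice on a C57BL/6 background. The CC10 promoter drives the rtTA switch in lung epithelial cells, so mutant EGFR was inducible there and not in the other cells of the lung. LC-HFD mice received a high-fat diet (HFD, with 60% of its energy from fat) and LC-RD mice a regular diet (RD). Both groups then received doxycycline (Dox), which turns on the transgene, at 625 ppm in their diet and at 2 mg/ml in their water. The labels give 8 weeks on the diets and then 7 weeks with Dox, and the study's methods give other lengths for both phases. The array set held no lungs without tumor induction, so all comparisons were made among lungs with the transgene induced. Values are log2 signals, so a difference of 1 is a 2-fold change. In whole lung, fewer cells of a type and less RNA per cell cannot be told apart.

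The 6 arrays had close median log2 signals of 4.79 to 4.84, and 34.9% to 36.2% of probe sets were at or above a log2 value of 6. Markers of lung epithelium were high in every lung, with Sftpc, the surfactant protein of type II cells, averaging 13.81 in LC-HFD and 13.81 in LC-RD lungs. That probe set was nearly flat (SD 0.000473 in LC-HFD and 0.000924 in LC-RD), as at a signal ceiling, so its equal means cannot show a lack of difference. A second Sftpc probe set lay at a difference of 1.45, but the study lists it with very low signals, so that size is uncertain. The control probe sets differed between the groups. Spiked hybridization controls averaged 11.5 ± 0.0254 in LC-HFD and 10.0 ± 0.0168 in LC-RD lungs (SD, n = 3 each). The 18S rRNA controls averaged 7.61 ± 0.0693 in LC-HFD and 12.5 ± 0.0164 in LC-RD lungs, and the poly-A controls 6.02 ± 0.0386 in LC-HFD and 6.38 ± 0.0435 in LC-RD lungs. Gapdh controls were 0.24 higher in LC-HFD lungs, without overlap, and beta-actin controls differed by 0.03. The signal at the 3′ end minus that at the 5′ end of 4 control genes, a sign of RNA quality, was 1.584 to 1.696 in LC-HFD and 1.703 to 1.761 in LC-RD lungs, without overlap. With 3 lungs against 3, the smallest p that an exact two-sided permutation test can give is 0.1. In this design, what differed in the handling of the arrays cannot be told apart from diet.

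Of the 26 measured sterol genes, 13 were lower in LC-HFD lungs than in LC-RD lungs, 1 was higher and 12 did not pass an adjusted p of 0.05 (limma over all probe sets, Benjamini-Hochberg). For comparison, 16.2% of all 18193 genes were lower and 11.1% were higher by the same rule. The sterol genes were chosen with earlier results of these data known, so this comparison is a description and not a test. The study's own pathway analysis of these arrays had already scored cholesterol biosynthesis as lowered in LC-HFD lungs. Among the 9084 brighter genes (mean log2 of 6 or more), where 24 of the 26 sterol genes stood, 23.4% were lower and 12.1% higher. The median difference of the 26 genes was −0.34, and that of all genes was 0.02. Before the test, 23 of the 26 differences were below 0. In 17 genes all 3 LC-HFD lungs lay below all 3 LC-RD lungs, a pattern seen in 26.8% of all genes and in 40.9% of those at or above 6, and in 2 genes all LC-HFD lungs lay above, as in 22.3% of all genes. By brightest probe set, only Tm7sf2 and Sc5d passed the test and fell by more than 2-fold, a rule met by 1.07% of all genes. Neither did so after quantile normalization. Adding the 3′-to-5′ signal gap to the model left 7 of the 13 lower genes past the test, namely Idi1, Fdps, Sqle, Cyp51, Tm7sf2, Sc5d and Insig1, and no higher one.

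**Figure D1:**
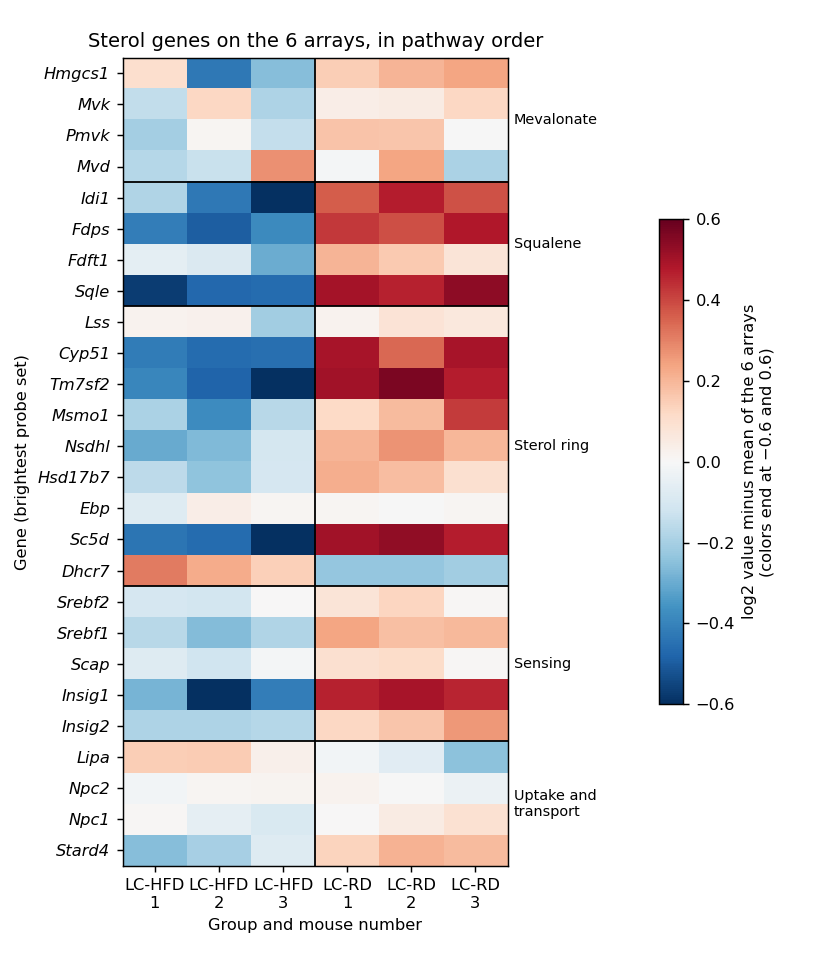
Log2 value of each of the 26 sterol genes on each array minus the gene's mean over the 6 arrays, with genes in pathway order and LC-HFD arrays left of LC-RD arrays. Blue marks values below the gene's mean, and most genes are blue in all 3 LC-HFD lungs, whereas Dhcr7 runs the other way.

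Of the 17 measured synthesis genes, 9 were lower, 1 was higher and 7 did not pass. Their mean log2 value was 7.50, 7.46 and 7.44 in the LC-HFD lungs, against 7.91, 7.93 and 7.90 in the LC-RD lungs. The groups did not overlap, and within each group the lungs lay close together. No lung was the lowest of its group in more than 7 of the 17 genes, a count that does not weigh how far each lung pulls the mean. By step, the median difference was −0.18 over the 4 mevalonate genes, −0.84 over the 4 genes up to squalene epoxide and −0.45 over the 9 genes of the sterol ring. The steps were not tested against each other.

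The promoters of the 5 searched genes with the largest differences are shown, since SREBPs are known to bind a sterol regulatory element or an E-box and to act together with NF-Y. Each is the stretch of 150 bases before a RefSeq start site (GRCm38.p6), written 5′ to 3′ on the strand of the gene. Capitals mark the sterol regulatory element (TCACNCCAC), the NF-Y box (CCAAT or its complement ATTGG) and the E-box (CACGTG). Hmgcs1 is included for its sterol regulatory element and Dhcr7 because it moved the other way. Of the genes shown, Dhcr7 alone had several start sites, and the stretch with the most capitalized matches was taken. The windows of its other start sites, which lie upstream, held no NF-Y box.
Hmgcs1 (chr13:119690201-119690350, plus strand): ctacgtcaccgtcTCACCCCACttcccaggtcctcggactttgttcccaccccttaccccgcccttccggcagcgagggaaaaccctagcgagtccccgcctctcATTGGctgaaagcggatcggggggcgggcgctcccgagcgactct
Idi1 (chr13:8885456-8885605, plus strand): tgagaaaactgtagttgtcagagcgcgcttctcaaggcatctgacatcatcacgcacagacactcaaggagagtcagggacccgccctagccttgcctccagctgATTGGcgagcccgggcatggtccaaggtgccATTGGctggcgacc
Cyp51 (chr5:4104698-4104847, minus strand): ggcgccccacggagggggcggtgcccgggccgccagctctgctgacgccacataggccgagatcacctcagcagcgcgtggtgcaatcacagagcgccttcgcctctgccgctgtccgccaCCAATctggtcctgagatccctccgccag
Tm7sf2 (chr19:6067851-6068000, minus strand): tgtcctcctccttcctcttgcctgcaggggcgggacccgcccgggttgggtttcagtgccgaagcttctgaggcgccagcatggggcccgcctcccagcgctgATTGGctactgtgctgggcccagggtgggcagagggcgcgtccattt
Sc5d (chr9:42264301-42264450, minus strand): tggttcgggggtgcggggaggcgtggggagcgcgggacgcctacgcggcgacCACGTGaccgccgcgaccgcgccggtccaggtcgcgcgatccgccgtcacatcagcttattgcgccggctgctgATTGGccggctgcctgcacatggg
Insig1 (chr5:28071262-28071411, plus strand): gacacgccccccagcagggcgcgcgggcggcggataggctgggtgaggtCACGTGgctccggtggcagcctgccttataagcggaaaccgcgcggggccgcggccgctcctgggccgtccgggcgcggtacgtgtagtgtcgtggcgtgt
Dhcr7 (chr7:143830064-143830213, plus strand): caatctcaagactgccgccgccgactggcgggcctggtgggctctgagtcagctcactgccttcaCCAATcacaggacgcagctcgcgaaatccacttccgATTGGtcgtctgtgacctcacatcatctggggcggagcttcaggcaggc

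Windows of 300 bases, 250 before and 50 after each start site, were searched on both strands for 4 motifs, the 3 above and the Sp1 box (GGGCGG). Such windows were used for 21 of the 26 measured genes, with 29 windows in all. Fdps, Fdft1, Sqle, Npc1 and Stard4 were not searched here. An NF-Y box was found in 20 of the 21 genes, and in 10 of the 10 lower genes searched, against 42% of 14453 array genes with a window. By window rather than by gene it was 21 of 29, against 37.4% of 18110 windows. In 17 of the genes an NF-Y box began within the 100 bases before a start site. No share over all genes was taken for that distance, so this count has nothing to stand against. The Sp1 box was in 20 of 21 genes, against 57.3% of genes. The E-box was in 5 of 21, against 10.2%. The sterol regulatory element as spelled here was in Hmgcs1 alone, 137 bases before its start, against 1.46% of genes. No matches of different motifs overlapped in these windows. A match is a description of the letters, not a binding site.

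**Figure D2:**
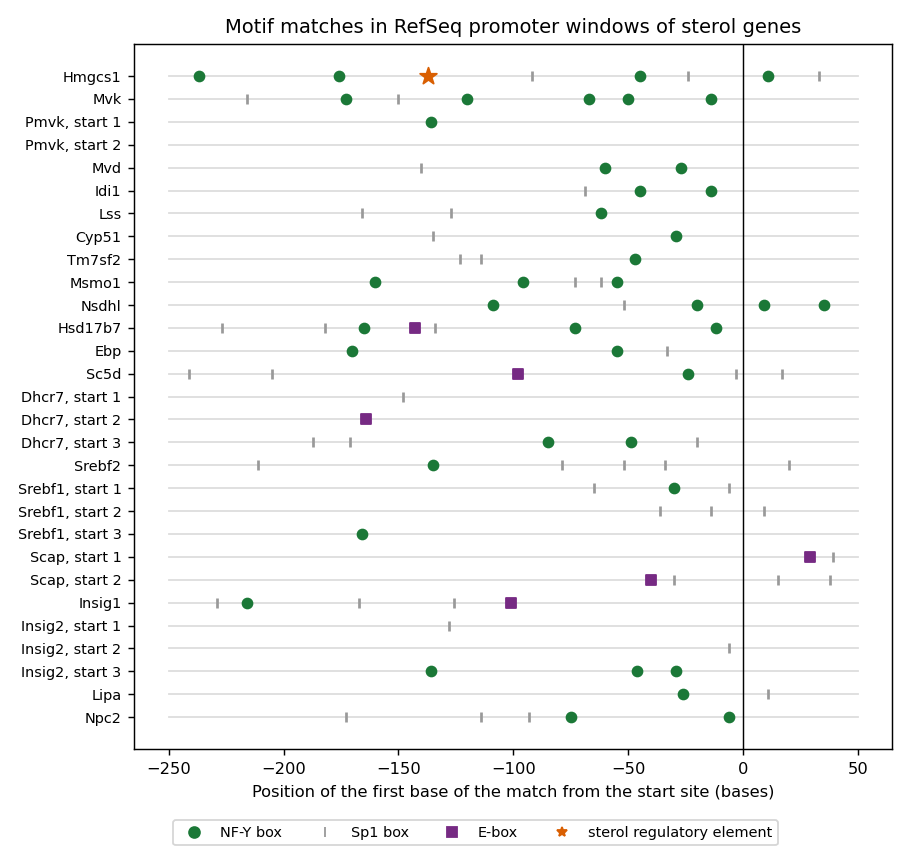
Position of each motif match in the 29 promoter windows of 21 sterol genes, in bases from the start site at 0. Green NF-Y boxes stand in the windows of 20 of the 21 genes, and the only sterol regulatory element (star) is that of Hmgcs1.

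The first enzymes of the route did not pass the test with their brightest probe set. Hmgcs1, the synthase that makes HMG-CoA, read 10.08, 9.55 and 9.72 in LC-HFD lungs, against 10.12, 10.18 and 10.21 in LC-RD lungs. All LC-HFD lungs were lower, but the first by little, and the spread in LC-HFD (SD 0.270) was wider than in LC-RD (SD 0.0444). The difference was −0.39 (95% interval −0.71 to −0.07, limma adjusted p = 0.0735). Without LC-HFD lung 1 it was −0.54 and passed. Hmgcs1 had 4 further probe sets. Those at −0.44 and −0.53 passed the test (limma adjusted p = 0.0181 and 0.00401), one at −0.33 missed it (0.0505), and one at −1.33 was close to background with a mean of 2.84. All 5 probe sets of this gene were thus below 0, and its place among the genes that did not pass depended on which one was read.

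Pmvk, the kinase that adds the second phosphate to mevalonate, read 8.45, 8.66 and 8.51 in LC-HFD lungs, against 8.82, 8.82 and 8.65 in LC-RD lungs. The groups overlapped slightly, since the highest LC-HFD lung was above the lowest LC-RD lung. The difference was −0.22 (95% interval −0.44 to −0.01, limma adjusted p = 0.114). Mvk, the kinase before it, differed by −0.14 and Mvd, the decarboxylase after it, by −0.02, and both groups overlapped in each. The second probe sets of these genes read 0.11 and 0.00 apart, so neither gave a direction.

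Of the 4 enzymes that carry the isoprenoids to squalene and its epoxide, 3 were lower and Fdft1 did not pass. Idi1, which isomerizes isopentenyl diphosphate, read 8.68, 8.43 and 8.25 in LC-HFD lungs, against 9.22, 9.33 and 9.24 in LC-RD lungs. That is 43.0% lower (difference −0.81, SE 0.116, limma adjusted p = 0.00361). A second Idi1 probe set, at 6.39, 5.49 and 5.997 in LC-HFD lungs against 6.86, 6.95 and 7.39 in LC-RD lungs, differed by −1.11 (limma adjusted p = 0.0159).

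Fdps, which joins the isoprenoid units to farnesyl diphosphate, read 7.72, 7.64 and 7.75 in LC-HFD lungs, against 8.56, 8.52 and 8.61 in LC-RD lungs. Both groups were tight, and the gap between them was several times their spread. The difference was −0.86 (95% interval −1.03 to −0.69, limma adjusted p = 0.000620). A second Fdps probe set, near background at a mean of 1.82, lay at 0.07, and with the median over both the difference was −0.39. Fdft1, which joins farnesyl units head to head to form squalene, differed by −0.29 and narrowly missed the threshold (limma adjusted p = 0.0523), although its LC-HFD lungs all lay below its LC-RD lungs. Without LC-HFD lung 1 it was −0.34 and passed. A second Fdft1 probe set passed at −0.68, and the others of that gene, with means near 4, lay at 0.33 and 0.31. The median over its probe sets gave −0.07.

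Sqle, squalene epoxidase, is the first oxygen-dependent step and a known control point of the route. It read 7.19, 7.29 and 7.30 in LC-HFD lungs, against 8.26, 8.22 and 8.30 in LC-RD lungs. Its difference was −0.99998 (95% interval −1.17 to −0.83, limma adjusted p = 0.000370). It fell just short of the 2-fold rule, and both groups were tight.

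Of the 9 sterol ring genes, 6 were lower and 1 was higher. Tm7sf2, a reductase of the sterol ring, had the largest difference of the 26 genes, at 5.44, 5.36 and 5.17 in LC-HFD lungs against 6.34, 6.40 and 6.31 in LC-RD lungs. The difference was −1.03 (SE 0.0909, 95% interval −1.24 to −0.81, limma adjusted p = 0.000702), or 50.9% lower. It was also among the dimmest members, below a log2 value of 6 in every LC-HFD lung. Lbr, a nuclear envelope protein that carries the same reductase activity, was lower too, by 0.42 on the log2 scale (8.61 ± 0.0323 in LC-HFD and 9.03 ± 0.0229 in LC-RD lungs, limma adjusted p = 0.0058).

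Sc5d, the desaturase that puts a double bond into the ring late in the route, read 7.44, 7.42 and 7.27 in LC-HFD lungs, against 8.39, 8.41 and 8.35 in LC-RD lungs. The groups were about a log2 unit apart with little spread in either. The difference was −1.01 (95% interval −1.19 to −0.82, limma adjusted p = 0.000446). The other probe sets of Sc5d, at −0.22 and 0.16, did not pass, and the median over all of them gave −0.22, so the size of the Sc5d difference rested on 1 probe set.

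Cyp51, which demethylates lanosterol, read 6.98, 6.94 and 6.95 in LC-HFD lungs, against 7.90, 7.75 and 7.90 in LC-RD lungs. The LC-HFD lungs were nearly identical. The difference was −0.89 (limma adjusted p = 0.000634), and a second Cyp51 probe set gave −1.25 (limma adjusted p = 0.000698). The enzymes of the demethylation complex that follows were lower too. Msmo1, its oxidase, differed by −0.49, Nsdhl, its decarboxylase, by −0.45, and Hsd17b7, its ketoreductase, by −0.33, all past the test. In each of the 3 genes all LC-HFD lungs lay below all LC-RD lungs. Without LC-RD lung 2, Msmo1 at −0.51 and Hsd17b7 at −0.32 no longer passed, nor did Hsd17b7 at −0.31 without LC-RD lung 1. With the median over its probe sets, Hsd17b7 was at −0.52.

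Ebp, the sterol isomerase, read 8.37, 8.49 and 8.47 in LC-HFD lungs, against 8.47, 8.45 and 8.46 in LC-RD lungs, with a difference of −0.02 and a 95% interval of −0.18 to 0.15. Lss, the cyclase that makes lanosterol, differed by −0.11 with its brightest probe set (limma adjusted p = 0.390), and its LC-HFD lungs at 6.59, 6.59 and 6.35 met the LC-RD lungs at 6.59, 6.65 and 6.63. A second Lss probe set read 5.90, 5.70 and 5.83 in LC-HFD lungs, against 6.66, 6.86 and 6.33 in LC-RD lungs, a difference of −0.81 (limma adjusted p = 0.00699). All 3 Lss probe sets were below 0, with sizes that differed widely.

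Dhcr7, the reductase of the last step to cholesterol, ran against the lower genes of the route. It was singled out after its values were seen. It read 7.55, 7.45 and 7.37 in LC-HFD lungs, against 7.00, 7.00 and 7.02 in LC-RD lungs. All LC-HFD lungs were higher, by 0.45 (SE 0.0754, 95% interval 0.27 to 0.63, limma adjusted p = 0.00638), or 36.7% above LC-RD. Dhcr7 was read by 1 probe set, and it no longer passed with the 3′-to-5′ signal gap in the model, although its difference there was 0.45.

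**Figure D3:**
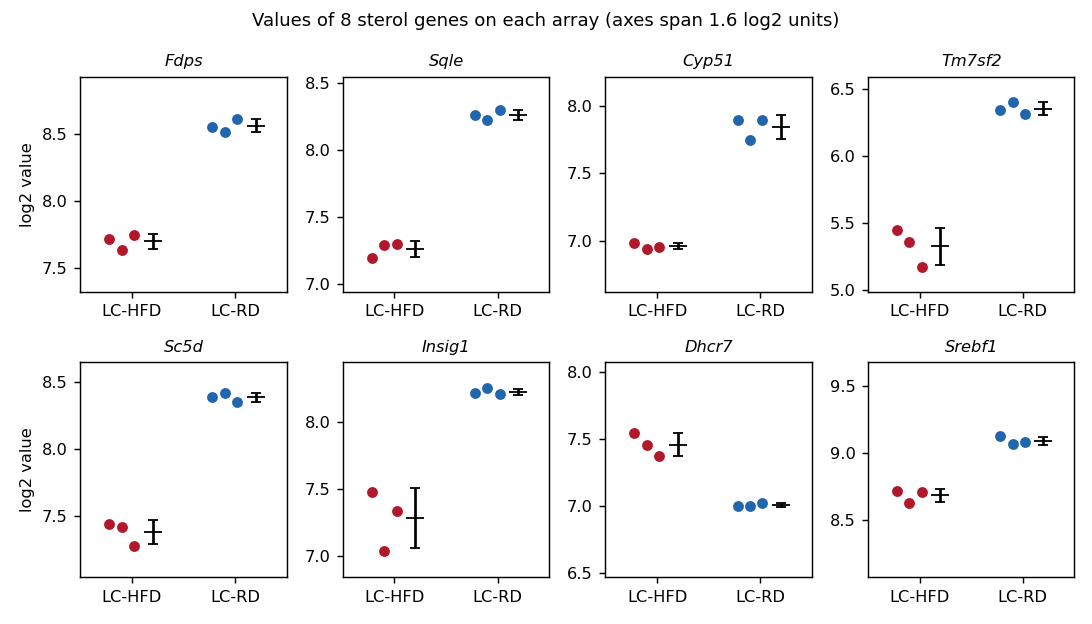
Log2 values of 8 sterol genes in each LC-HFD (red) and LC-RD (blue) lung, with the mean and SD of 3 lungs beside the points and axes that all span 1.6 log2 units. The groups do not overlap in any of the 8 genes, and Dhcr7 alone is higher in LC-HFD lungs.

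Every probe set was also read, rather than 1 for each gene. Of the 38 synthesis probe sets, 18 were lower and 1 was higher, against 13.6% lower and 11.3% higher of all 45037 probe sets. The 5 that were lower by over 2-fold were those of Tm7sf2 and Sc5d, a further one each of Idi1 and Cyp51, and a near-background one of Hmgcs1. Of the 23 with a mean of at least 6, 22 differences were below 0. The 7 synthesis probe sets with a mean under 4 read little signal.

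**Figure D4:**
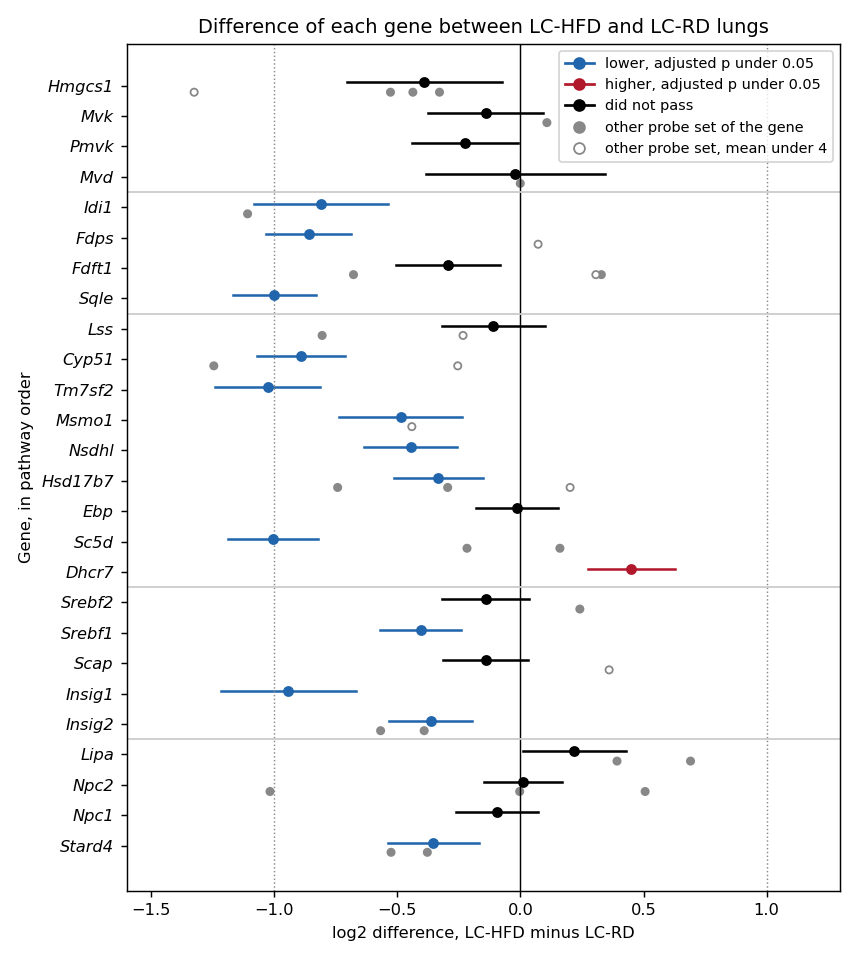
Log2 difference, LC-HFD minus LC-RD, of each sterol gene with its 95% interval (colored points, brightest probe set) and of the gene's other probe sets (gray, open where the mean log2 value is under 4), in pathway order. Dotted lines mark 2-fold, and the colored points from Idi1 to Sqle and from Cyp51 to Hsd17b7 lie left of 0.

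Among the sensing genes, the largest difference was in Insig1, the endoplasmic reticulum anchor of SCAP and itself a well-known SREBP target. It read 7.47, 7.04 and 7.34 in LC-HFD lungs, against 8.21, 8.25 and 8.21 in LC-RD lungs. The LC-RD lungs were almost equal, whereas the second LC-HFD lung was lowest by a clear margin. The difference was −0.94 (SE 0.117, 95% interval −1.22 to −0.67, limma adjusted p = 0.00225), or 48.0% lower. Its relative Insig2, which anchors SCAP in the same way but is controlled differently, read 8.06, 8.06 and 8.08 in LC-HFD lungs, against 8.37, 8.42 and 8.51 in LC-RD lungs. That smaller difference of −0.36 also passed (limma adjusted p = 0.0117), and the further probe sets of Insig2 gave −0.39 and −0.57, both past the test. The difference between the 2 family members was not tested.

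Of the SREBP genes, Srebf1 passed the test and Srebf2 did not. Srebf1 read 8.72, 8.63 and 8.71 in LC-HFD lungs, against 9.13, 9.07 and 9.08 in LC-RD lungs, a difference of −0.41 (limma adjusted p = 0.00720). The array does not separate the SREBP1 isoforms by this symbol. Srebf2, the main activator of cholesterol synthesis, read 7.63, 7.62 and 7.73 in LC-HFD lungs, against 7.81, 7.86 and 7.74 in LC-RD lungs. Its groups came within 0.01 of each other, and the difference of −0.14 did not pass (95% interval −0.32 to 0.04, limma adjusted p = 0.207). A second Srebf2 probe set went the other way, at 7.42, 7.41 and 7.46 in LC-HFD lungs against 7.21, 7.24 and 7.12 in LC-RD lungs (0.24, limma adjusted p = 0.0469). Scap, the SREBP escort, differed by −0.14 (limma adjusted p = 0.198), and its second probe set, with a mean of 3.58, lay at 0.36 and did not pass. The mRNA of Srebf2 and Scap thus had no settled direction, and an array of mRNA does not read the cleavage of SREBP proteins.

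Of the 4 uptake and transport genes, 1 was lower. Stard4, a soluble sterol carrier and SREBP target, read 7.24, 7.30 and 7.42 in LC-HFD lungs, against 7.63, 7.70 and 7.68 in LC-RD lungs. The difference was −0.35 (limma adjusted p = 0.0175), and its other probe sets gave −0.38 and −0.53. The call was lost without LC-RD lung 1 (−0.38), LC-RD lung 2 (−0.34) or LC-RD lung 3 (−0.35).

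Lipa, the lysosomal lipase that frees cholesterol from its esters, read 9.20, 9.21 and 9.09 in LC-HFD lungs, against 9.04, 8.99 and 8.81 in LC-RD lungs. All LC-HFD lungs were higher, but the difference of 0.22 did not pass (95% interval 0.01 to 0.43, limma adjusted p = 0.113). Its other probe sets passed at 0.69 and 0.39. The one at 0.69 read 9.24, 9.30 and 9.23 in LC-HFD lungs, against 8.56, 8.61 and 8.52 in LC-RD lungs. Each of the 3 Lipa probe sets was above 0, opposite to the lower synthesis genes.

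Npc1 and Npc2 hand cholesterol out of the lysosome. Npc1 read 8.72, 8.66 and 8.62 in LC-HFD lungs, against 8.72, 8.76 and 8.80 in LC-RD lungs (−0.09, limma adjusted p = 0.358). Npc2, also abundant in lung secretions, read 12.91, 12.93 and 12.94 in LC-HFD lungs, against 12.94, 12.92 and 12.88 in LC-RD lungs (0.01, limma adjusted p = 0.924). Other Npc2 probe sets disagreed, with one higher by 0.51 and a dim one, at a mean of 5.07, at −1.02, both past the test. No direction can be given for Npc2.

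Further genes of the pathway were read from lists built by role. Over all genes, 16.2% were lower and 11.1% higher, and over genes with a mean of at least 6, 23.4% and 12.1%. Of 6 measured genes among 9 named in other sterol and isoprenoid synthesis, 2 were lower, Lbr and Acat1 (the mitochondrial acetoacetyl-CoA thiolase, −0.41). Of 8 measured genes among 11 named for SREBP processing and sterol-regulated degradation, 3 were lower. The largest was Mbtps2, the protease that makes the second cut of SREBP in the Golgi membrane. It averaged 7.29 ± 0.191 in LC-HFD and 8.07 ± 0.0589 in LC-RD lungs (difference −0.78, limma adjusted p = 0.00318). Of 5 lipoprotein uptake genes among 8 named, none passed by limma and 2 had an unadjusted p under 0.05, and their median was 0.07. Of 11 sterol transport and storage genes, 3 were lower (27.3%) and 1 was higher (9.09%), near the shares over genes at or above 6. Among them were Osbpl8, a lipid exchanger at membrane contacts (−0.46), and Stard3, a late endosomal sterol transporter (0.38).

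SREBP1 is best known for fatty acid genes, and these were read beside the sterol genes. Of 13 measured targets, 6 were lower (46.2%, against 16.2% of all genes and 23.4% of those at or above 6) and the rest did not pass. Their median was −0.23. The desaturases led. Fads2 averaged 6.50 ± 0.136 in LC-HFD and 7.46 ± 0.044 in LC-RD lungs (−0.96, limma adjusted p = 0.000843), and Fads1 averaged 8.47 ± 0.0737 in LC-HFD and 9.09 ± 0.0355 in LC-RD lungs (−0.63, limma adjusted p = 0.00189). Acss2, which makes acetyl-CoA from acetate, differed by −0.58 and Scd2 by −0.42, both past the test. By contrast Fasn, the fatty acid synthase, differed by −0.05, and Acly, which supplies cytosolic acetyl-CoA, by 0.04, and neither passed. LXR is the nuclear receptor that senses oxysterols and turns on cholesterol export. Of 8 measured genes on a list of its targets, 2 were higher (25%, against 11.1% of all genes) and the rest did not pass. Srebf1, which was lower, was counted with the sensing genes and was not on that list. Apoe, a lipid carrier, differed by 0.34 (limma adjusted p = 0.0131) and Abca1, the cholesterol exporter, by 0.28 (limma adjusted p = 0.0248), although another Abca1 probe set lay at −0.33.

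Other properties of the lungs moved along with the sterol genes. Of 14 proliferation genes measured, 13 were lower (92.9%, against 16.2% of all genes), with a median of −0.60. The log2 of their summed unlogged signals was 11.54 to 11.57 in LC-HFD and 12.08 to 12.11 in LC-RD lungs. Mki67 averaged 8.15 ± 0.0818 in LC-HFD and 8.70 ± 0.074 in LC-RD lungs. By quantitative PCR, the study reported Mki67 mRNA as higher in LC-HFD than in LC-RD lungs, the opposite direction. The reason for that conflict was not tested. Of 11 macrophage markers, 5 were higher (45.5%, against 11.1% of all genes). The log2 of their summed unlogged signals was 13.63 to 13.67 in LC-HFD and 13.39 to 13.44 in LC-RD lungs. Bright genes weigh most in that sum, such as Chil3 (mean 12.90 in LC-HFD and 12.60 in LC-RD lungs). Marco, a scavenger receptor of alveolar macrophages, led at 0.77, whereas Adgre1 averaged 7.92 in LC-HFD and 7.92 in LC-RD lungs. The part of dividing cells and of macrophages in the sterol gene differences was not tested.

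Alveolar type II markers differed little, with 1 of 9 higher and a mean log2 level of 12.49 to 12.52 in LC-HFD and 12.50 to 12.52 in LC-RD lungs. Sftpc, one of the 9, was nearly flat at its high level, so its brightest probe set could not show a difference. Of 11 general lung epithelium markers, 1 was lower (Scgb3a2) and 1 higher (Abca3). That list overlaps the type II, club and ciliated cell lists, and both genes are counted there too. Of 7 club cell markers 4 were lower and 2 higher, and of 8 ciliated cell markers 1 was lower. Among stromal lists, 4 of 7 fibroblast markers were lower and 1 higher, and 2 of 7 endothelial markers were lower and 2 higher. Of 7 lymphocyte markers, 1 was lower and 1 higher. Adipocyte markers were close to background, with Adipoq at 3.32 ± 0.193 in LC-HFD and 2.62 ± 0.307 in LC-RD lungs and Lep at 2.78 and 2.73, and 2 of 6 were higher. Of 7 cardiac muscle markers, 4 were lower, at a mean log2 level of 4.38 to 4.46 in LC-HFD and 4.75 to 4.98 in LC-RD lungs. The part of these cells in the result was not tested. Over all genes, 16.2% were lower and 11.1% higher. Marker lists with 1 call in a direction (9.09% to 14.3%) stood near those shares.

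**Figure D5:**
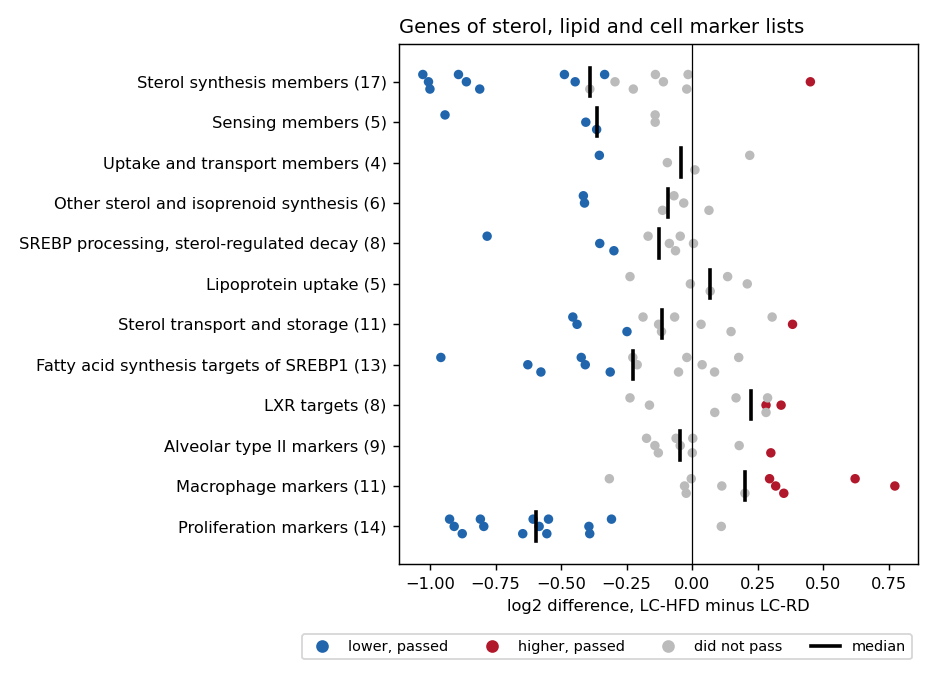
Log2 difference, LC-HFD minus LC-RD, of each measured gene (points) in the sterol genes and in related lipid and marker lists, with the number of genes in brackets and the median of each list as a black bar. Blue and red mark genes that passed the test as lower and higher, and the synthesis, sensing, fatty acid and proliferation lists lie mostly left of 0.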

How the data were processed

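Total RNA from 3 LC-HFD and 3 LC-RD lungs was labelled with biotin and hybridized to Affymetrix arrays, 1 lung each. The authors analyzed the scanned arrays with Partek software, and the submitters' processing notes name GCRMA, with no version stated in the sources used here. The deposited values are GCRMA log2 signals for each probe set, already background-corrected, normalized and summarized, so background and normalization were set before this work. The 45101 probe sets included 64 controls, which were left out. By the annotation used, 34958 probe sets belonged to 1 gene, 932 to more than 1, and 9211 had no gene. Genes were named from the first kind. All 6 sample columns were used.

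The 45037 remaining probe sets were tested with limma 3.58.1 in R 4.3.3 (lmFit and eBayes, LC-HFD minus LC-RD, no covariate), and p-values were adjusted by Benjamini-Hochberg over all of them. A gene passed with an adjusted p under 0.05, and 2-fold calls also needed a log2 difference over 1. Each gene was read from its brightest probe set, that with the highest mean over the 6 arrays. The number of arrays limits precision. Intervals are limma's 95% intervals. Control groups were compared with exact two-sided permutation tests in Python 3.11.15. The model was tested on simulated data.

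Values on every array are given for members past the test and 2-fold, for the 2 largest differences of each pathway step and for the family pairs of Insig, Srebf and Npc. Those of Idi1, Cyp51, Ebp, Lss and Dhcr7 were added after their values were seen. Of other lists, up to 4 genes past the test were named. Fasn, Acly, Adgre1, Sftpc and Lep were named after their values were seen. The members and lists were chosen with earlier results of these data known. Promoter windows were RefSeq's, GRCm38.p6.

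Replicate numbers did not pair the lungs, since the deviations of lungs with the same number correlated at −0.04, −0.09 and −0.03. The labels and the study's methods differ in the lengths of the diet before Dox and of the Dox phase. Alternatives were the methods' t-test, other variance models, array weights, quantile normalization, median centering, minimum values of 4 and 6, a replicate block, the 3′-to-5′ signal gap as a covariate, the median over a gene's probe sets and leaving out each lung. Reading only probe sets without an x or s suffix, which mark probes shared between transcripts, was added after seeing the data.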

Additional observations from a re-analysis of the deposited data

How the results depend on the processing

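The 13 lower sterol genes and the 1 higher gene were recomputed under 17 alternatives, and the median difference stayed below 0 in all of them. The cause of the changes below was not tested. With the 3′-to-5′ signal gap in the model, 7 genes were lower and 0 were higher, and the synthesis median was −0.34. That covariate separates the groups, and 3558 of all probe sets then passed, against 11250 without it. With quantile normalization 12 genes were lower, 0 by over 2-fold, and the median of the 26 genes was −0.27. Median centering left 1 gene lower by over 2-fold. A minimum of 6, which dropped Mvk and Tm7sf2, left 1 such gene and gave 2 higher genes, and the trended robust variance also gave 2 higher. With the median over a gene's probe sets, 3 genes were higher and the medians were −0.38 over all 26 genes and −0.45 over the synthesis genes. Without x or s probe sets, 15 genes were lower and 2 were higher, and the medians were −0.39 and −0.49. That setting changed the probe set read for 4 genes, namely Hmgcs1, Lss, Hsd17b7 and Lipa. The replicate block gave 12 lower genes and 1 higher, with 7906 probe sets passing, and the methods' t-test gave 12 lower and 7950. Leaving out 1 lung at a time gave 10 to 15 lower genes, 1 higher, and 1 to 3 lower by over 2-fold, the lowest without LC-HFD lung 3. The median then ranged over −0.36 to −0.31, and that of the synthesis genes over −0.41 to −0.33. Without LC-RD lung 1 or LC-RD lung 2, 5835 and 5792 probe sets passed.

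Idi1, Fdps, Sqle, Cyp51, Tm7sf2, Sc5d and Insig1 passed under every alternative that tested them. Sign changes were seen only in genes that did not pass. Mvd was at 0.061 with quantile normalization, 0.17 with the covariate, and −0.16 to 0.092 with 1 lung left out. Ebp was at 0.025 with quantile normalization, 0.0027 with median centering and −0.041 to 0.020 with 1 lung left out. Npc2 was at −0.0038 with the covariate and −0.0055 to 0.024 with 1 lung left out. With the median over probe sets, Srebf2 was at 0.050 and Scap at 0.11. Probe sets near background limit the dim genes.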
